A study of Mus musculus with 12 samples.

Results

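Marrow from irradiated mice given the carotenoid DEIX was compared with marrow from untreated controls, gene by gene. All 21853 protein-coding genes of the deposited expression table belonged to the comparison, which is every gene the table holds, and they were measured in 6 of the 12 libraries of the series. Control mice received neither irradiation nor DEIX, and the labels name no vehicle for them. TBI+DEIX mice received total body irradiation of 5 Gy at 0.66 Gy/min with gamma rays and then DEIX by mouth at 25 mg/kg daily for 14 days. DEIX stands for deinoxanthin, a red carotenoid pigment of Deinococcus bacteria, going by the series title. The other groups were TBI (5 Gy and 100 µL of olive oil by gavage) and DEIX (25 mg/kg daily without irradiation), each with 3 libraries. Both entered the shared estimate of spread behind the p-values of the main fit of 12 libraries. TBI was also tested directly against TBI+DEIX, and other values of these groups are only set side by side. All mice were of the strain labelled B6, and whole bone marrow was isolated 14 days after irradiation. The labels give no age or sex, and they do not say whether each library came from a separate mouse, so p-values measure the spread between these libraries, which may be technical. Irradiation and DEIX differ together between TBI+DEIX and control, so their parts cannot be told apart from these 6 libraries.

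Bone marrow makes red cells, platelets, granulocytes, monocytes and B lymphocytes from a small pool of stem and progenitor cells. Dividing progenitors and B cell precursors are sensitive to ionizing radiation, and the lineages refill at different rates in the weeks after a sublethal dose. Whole marrow RNA mixes all of these cells, so each gene's level reflects both how many cells of a type are present and how much RNA each of them holds. In bulk samples fewer cells of a type and less RNA per cell cannot be told apart, and this holds for every result given here.

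The libraries carried the marks of marrow. Of marker sets chosen for the marrow lineages, all 5 erythroid, 8 neutrophil, 4 monocyte, 5 B lineage, 4 T and NK cell and 3 megakaryocyte markers averaged at least 1 FPKM in both groups. FPKM is a fragment count corrected for how long the transcript is and how many fragments its library had mapped. Summed over 3 skeletal muscle markers the highest library reached 0.462 FPKM, over 2 hepatocyte markers 0.0962 FPKM, and the keratinocyte gene Krt5 was at 0 in all 6 libraries. The epithelial gene Epcam lay between 0.337 and 0.993 FPKM in 5 libraries and at 6.76 FPKM in TBI+DEIX replicate 3. TBI+DEIX replicate 1 stood apart from the other libraries. The root mean square difference of log2 values from the control mean was 0.829 in it, against 0.533 and 0.616 in TBI+DEIX replicates 2 and 3. The spread within the TBI+DEIX group, as a root mean square SD of log2 values, was 0.418 with it and 0.198 without it, against 0.14 in the controls. The table holds no counts, and the steps in its low values were too weak to give the relative depth of the libraries. S100a8, S100a9 and Ngp, abundant neutrophil genes, were listed at 0 in control replicate 3 and TBI+DEIX replicate 2 and are not described.

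A large part of the marrow transcriptome differed between the groups. Of 10994 genes with enough signal to test, 3299 were called at an adjusted p under 0.05, which is 30.0% of those tested. Among them 1855 were higher in TBI+DEIX (16.9%) and 1444 were lower (13.1%). The lower genes moved further. By at least 1 on the log2(FPKM + 1) scale, 233 genes rose and 405 fell, and by at least 2 on that scale 22 rose and 78 fell. The median called rise was 0.59 and the median called fall -0.72 on the log2 scale, while the median over all tested genes was 0.02. Values of the 3 TBI+DEIX libraries lay wholly above the controls in 2623 genes (23.9%) and wholly below them in 2318 (21.1%), 44.9% of tested genes in all. A fit on the 6 libraries alone pooled the larger spread of TBI+DEIX with that of control and of no other group. In it 1207 genes were higher (11.0%) and 974 lower (8.86%), and 2116 of the 3299 genes kept their call. Rescaled to TPM, which fixes each library's sum, 546 genes were higher and 1239 lower, so the share of calls that were rises went from 56.2% to 30.6%, and to 38.6% in TPM without S100a8, S100a9 and Ngp. The median over all genes was then -0.09 and -0.06 on the log2 scale.

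Among the 12 genes that rose the most, 3 were stefin A genes, which code for small inhibitors of cysteine proteases in myeloid cells. Stfa2 (chr16:36403992-36408457, minus strand, GRCm38) stood at 7.94, 7.45 and 9.55 FPKM in control replicates 1 to 3 and at 84.0, 147 and 449 FPKM in TBI+DEIX replicates 1 to 3. Its mean was 27.3-fold higher in TBI+DEIX, and its log2 difference was 4.26 with a standard error of 0.61 and an adjusted p of 0.000767. All TBI+DEIX libraries lay above all controls, and replicate 3 was the highest. Stfa3 went from 25.7, 29.3 and 34.1 FPKM to 105, 221 and 737 FPKM, a log2 difference of 3.08 with an adjusted p of 0.00408. Stfa1 went from 20.2, 25.8 and 30.3 FPKM to 63.3, 180 and 443 FPKM, a log2 difference of 2.73 with an adjusted p of 0.00695. The same library was highest for all 3 genes. They are close copies of each other beside one another on chromosome 16, so reads may have been split among them in the authors' estimates. In TBI and DEIX the 3 genes lay between 12.6 and 70.2 FPKM in every library.

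Other leading rises were of genes with different roles. Asprv1, an aspartic protease found in skin and neutrophils, was at 47.5, 56.3 and 61.8 FPKM in control and 276, 439 and 458 FPKM in TBI+DEIX, a 7.08-fold higher mean with an adjusted p of 0.000143. Ggt1, the gamma-glutamyltransferase that cleaves extracellular glutathione, was at 4.07, 3.28 and 4.37 FPKM in control and 40.0, 43.3 and 61.1 FPKM in TBI+DEIX, a 12.3-fold higher mean with an adjusted p of 0.000678. Vcan, the matrix proteoglycan versican, was at 1.84, 2.08 and 1.13 FPKM in control and 27.4, 12.6 and 32.0 FPKM in TBI+DEIX, a 14.2-fold higher mean with an adjusted p of 0.000609. Each of these genes was separated by a wide gap between the highest control and the lowest TBI+DEIX library. Prok2, a chemokine-like secreted peptide made by neutrophils, rose by 2.95 on the log2 scale (adjusted p 0.00781). Upp1, a uridine phosphorylase, rose by 2.53 (adjusted p 0.00509). In both genes TBI+DEIX replicate 1 was the lowest of its group, at 20.1 and 17.0 FPKM, where replicates 2 and 3 lay between 43.5 and 81.0 FPKM.

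A few leading rises were uneven. Lipg, an endothelial-type lipase, was between 0.515 and 0.775 FPKM in control and at 81.3, 12.7 and 25.0 FPKM in TBI+DEIX, a 62.3-fold higher mean and a log2 difference of 4.24 with an adjusted p of 0.00643. Entpd3, an ectonucleotidase, was between 0.601 and 0.898 FPKM in control and at 43.0, 5.04 and 7.75 FPKM in TBI+DEIX, with an adjusted p of 0.00381. In both genes TBI+DEIX replicate 1 was the highest. Marco, a scavenger receptor of macrophages, was at 0.897, 0.107 and 0.155 FPKM in control and 21.9, 1.08 and 8.08 FPKM in TBI+DEIX, with an adjusted p of 0.0174 that became 0.0778 with the 6 libraries alone. Podxl, the sialomucin podocalyxin, was between 0.0371 and 0.0698 FPKM in control and at 8.27, 9.93 and 5.35 FPKM in TBI+DEIX, a 158-fold higher mean over very low control values, with an adjusted p of 0.0128 that became 0.0582 with a separate variance for each group. Podxl was also at 10.2 and 9.90 FPKM in TBI replicates 2 and 3 and at 0.272 FPKM in TBI replicate 1. Of the 12 largest rises, 11 were called with the 6 libraries alone, all but Marco.

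**Figure D1:**
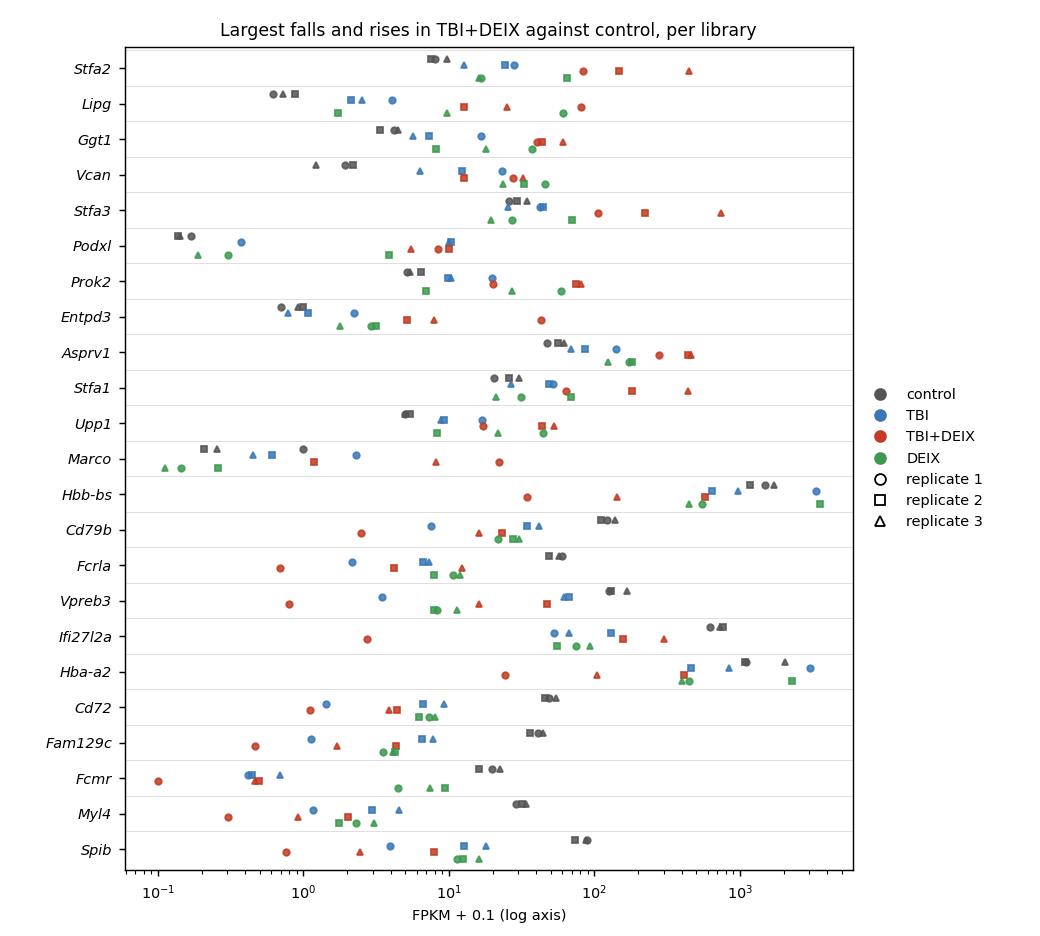
FPKM + 0.1 on a log axis for the 12 genes that rose the most and 11 of the 12 that fell the most in TBI+DEIX against control, each point a library, coloured by group and shaped by replicate number. Controls sit close together in nearly every gene, while TBI+DEIX replicate 1 is the lowest point of its group for the B cell genes, such as Spib at 0.655 FPKM.

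The genes that fell the most were mostly of the B lineage. Spib (chr7:44525993-44532071, minus strand), an ETS-family transcription factor of B cells and plasmacytoid dendritic cells, was at 89.3, 72.9 and 87.4 FPKM in control and 0.655, 7.77 and 2.34 FPKM in TBI+DEIX. Its mean was 23.2-fold lower, and its log2 difference was -4.52 with a standard error of 0.56 and an adjusted p of 0.00041. Fcmr, the Fc receptor for IgM, was at 19.8, 15.9 and 22.3 FPKM in control and at 0, 0.393 and 0.363 FPKM in TBI+DEIX, with an adjusted p of 1.73e-05. Cd72, a B cell co-receptor that dampens antigen receptor signals, was at 48.8, 45.5 and 54.1 FPKM in control and 1.01, 4.27 and 3.79 FPKM in TBI+DEIX, with an adjusted p of 0.000472. None of the TBI+DEIX libraries came near a control in these genes. Myl4, a myosin light chain gene, was at 28.9, 31.5 and 33.7 FPKM in control and 0.201, 1.91 and 0.823 FPKM in TBI+DEIX (adjusted p 8.7e-05). Fam129c, a B cell gene, fell by 3.96 on the log2 scale (adjusted p 0.000529), and Fcrla, an Fc receptor-like protein of B cells, fell by 3.55 (adjusted p 0.00194).

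Of 21 tested genes for B cell surface proteins and signalling, 17 fell and 0 rose, with a median log2 difference of -2.55 beside 0.02 over all tested genes. With the 6 libraries alone 15 of them fell. Cd79b, a signalling chain of the B cell receptor, was at 122, 111 and 138 FPKM in control and 2.39, 22.9 and 15.9 FPKM in TBI+DEIX (adjusted p 0.00409). Fcer2a and Ccr7 are genes of mature, recirculating B cells. Fcer2a, the low-affinity IgE receptor CD23, fell from between 3.90 and 6.22 FPKM to between 0.0388 and 0.0622 FPKM (adjusted p 5.22e-05). Ccr7, a chemokine receptor for homing to lymphoid organs, fell from between 5.37 and 7.07 FPKM to between 0.640 and 0.960 FPKM (adjusted p 9.59e-05).

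Many genes of earlier stages of B cell development also fell. Of 14 tested genes of V(D)J recombination and B cell precursors, 8 fell and 1 rose, beside 13.1% and 16.9% of all tested genes. With the 6 libraries alone 7 fell and 0 rose, beside 8.86% called lower. Without TBI+DEIX replicate 1, 6 fell and 0 rose, beside 15.3% called lower. The list's median was -1.98, and -1.27 without TBI+DEIX replicate 1. The medians in TBI+DEIX replicates 1 to 3 were -2.68, -0.77 and -1.90 against the control mean. Vpreb3, a gene of pre-B cells, was at 125, 130 and 168 FPKM in control and 0.699, 46.9 and 15.9 FPKM in TBI+DEIX, with an adjusted p of 0.0355 that became 0.064 with the 6 libraries alone. Bach2, a repressor that guards B cell development, fell from between 13.2 and 16.3 FPKM to 0.440, 2.00 and 0.616 FPKM (adjusted p 0.000512). Vpreb1, a chain of the surrogate light chain of the pre-B receptor, was not called (adjusted p 0.224), at 32.0, 37.5 and 37.4 FPKM in control and 0.552, 45.6 and 10.1 FPKM in TBI+DEIX. Sox4, needed for pro-B cell survival, fell by 2.36 on the log2 scale (adjusted p 0.00222). Of 14 B cell transcription factor genes 11 fell and 1 rose. Mef2c fell by 1.36 (adjusted p 0.000143) and Ikzf3, the factor Aiolos, by 2.01 (adjusted p 0.000362). Ikzf1, which codes for Ikaros and is used by many blood lineages, was the gene that rose, by 0.43 (adjusted p 0.0141, and 0.0745 with the 6 libraries alone). Summed over 5 B lineage markers, the controls lay between 272 and 348 FPKM and TBI+DEIX between 4.78 and 79.4 FPKM, with TBI+DEIX replicate 1 the lowest. For the 21 surface and signalling genes the medians were -2.02 in TBI and -1.47 in DEIX against the same controls, beside -2.55 in TBI+DEIX. All 3 comparisons share the control libraries.

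Plasma cell genes, the secretory end of that lineage, were not called in either direction: 0 of 10 passed, with limma at an adjusted p under 0.05 over all genes, and 0 of 10 with the 6 libraries alone. Without TBI+DEIX replicate 1, 2 of 10 were called higher, no more than the 23.2% of all tested genes, and the list's median was 0.69 in place of 0.37. The list's medians were -0.66, 0.25 and 1.36 in TBI+DEIX replicates 1 to 3. Jchain, which links secreted antibody units, was at 332, 276 and 175 FPKM in control and 131, 411 and 1161 FPKM in TBI+DEIX, the highest value being in the library that was also highest for Epcam.

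Of 21 tested T and NK cell genes, 6 fell and 0 rose, beside 13.1% of all tested genes called lower. With the 6 libraries alone 3 fell, where 8.86% of all tested genes were called lower. The medians of that list were -1.27, -0.19 and -0.26 in TBI+DEIX replicates 1 to 3, and without replicate 1 the list's median was -0.22 in place of -0.56. Gzma, granzyme A of cytotoxic cells, was at 16.5, 23.1 and 14.0 FPKM in control and 3.26, 6.51 and 3.81 FPKM in TBI+DEIX (adjusted p 0.0018). Cd2, an adhesion receptor of T and NK cells, fell by 1.86 on the log2 scale (adjusted p 0.000939). Nkg7, a granule membrane protein of cytotoxic cells that neutrophil precursors also express, was at 118, 142 and 154 FPKM in control and 44.9, 101 and 119 FPKM in TBI+DEIX, and was not called (adjusted p 0.105). Dendritic cell genes were lower. Of 15 tested, 11 fell and 0 rose, with a median of -1.35, beside 13.1% of all tested genes called lower. Spib and Irf8 stand both in this list and in that of B cell transcription factors. Siglech, a receptor of plasmacytoid dendritic cells, was at 28.1, 26.5 and 25.3 FPKM in control and 2.43, 5.94 and 2.26 FPKM in TBI+DEIX, a 7.51-fold lower mean with an adjusted p of 0.000111. Irf8, a transcription factor needed for dendritic cells and monocytes, was at 94.3, 94.2 and 96.6 FPKM in control and 15.8, 35.6 and 25.8 FPKM in TBI+DEIX (adjusted p 0.000316). Tcf4, the master factor of plasmacytoid dendritic cells, fell by 1.35 (adjusted p 0.000229).

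**Figure D2:**
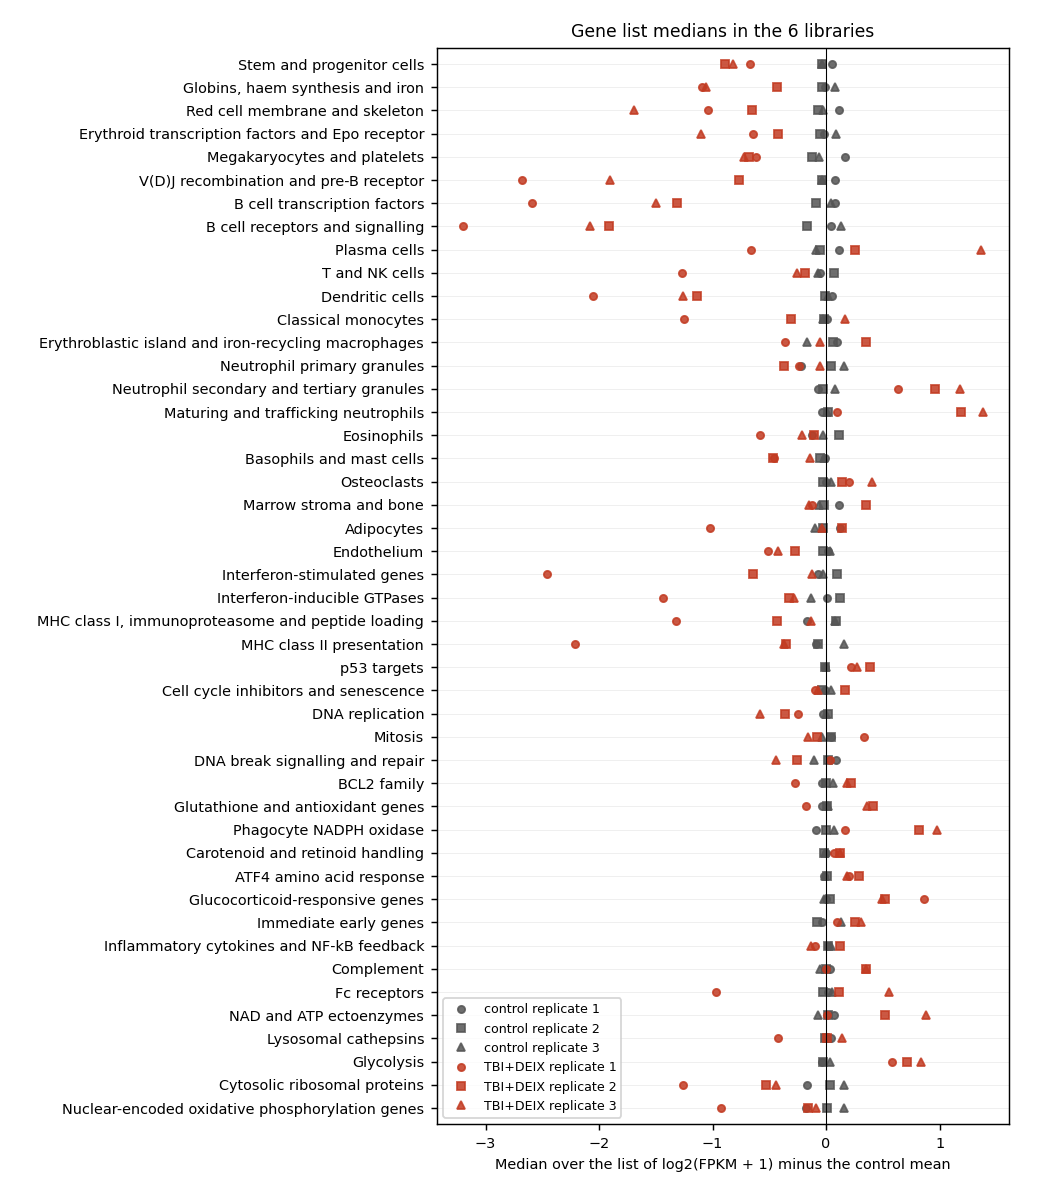
Median over each of 46 gene lists of log2(FPKM + 1) minus the control mean, for the 3 control libraries (grey) and the 3 TBI+DEIX libraries (red), shaped by replicate number. For B cell receptors and signalling all 3 TBI+DEIX libraries lie far left of the controls, while for interferon-stimulated genes replicate 1 lies at -2.46 and replicate 3 at -0.12.

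Most stem and progenitor cell genes fell. Of 15 tested genes, 10 fell and 1 rose, in the fit of 12 libraries and in the fit of 6 alone. Over all tested genes 13.1% and 8.86% were called lower in these 2 fits. The list's medians were -0.67, -0.89 and -0.82 in TBI+DEIX replicates 1 to 3. Cd34, a sialomucin of progenitor cells (chr1:194938819-194961279, plus strand), was at 21.2, 21.0 and 20.3 FPKM in control and 7.27, 2.54 and 2.78 FPKM in TBI+DEIX, a 4.95-fold lower mean with an adjusted p of 0.000851. Meis1, a homeobox factor of stem cells that was under 2 FPKM in every control, fell by 0.83 on the log2 scale (adjusted p 0.000817). Erg, an ETS factor shared by stem cells and other lineages, was the gene that rose, from between 17.6 and 20.8 FPKM to between 32.3 and 37.8 FPKM (adjusted p 0.00121). Myb, a factor of immature cells of many lineages that was listed with the B precursor genes, fell from between 77.2 and 81.1 FPKM to between 31.3 and 42.2 FPKM (adjusted p 0.000299). Kit, the stem cell factor receptor, also present on mast cells, fell by 0.96 (adjusted p 0.00448). Ly6a, which codes for the stem cell antigen Sca-1 and is also induced by interferon, was at 36.5, 39.7 and 33.0 FPKM in control and 7.86, 27.0 and 221 FPKM in TBI+DEIX, and was not called (adjusted p 0.984). Its replicate 3 lay far above the controls and its replicates 1 and 2 below them.

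Megakaryocyte and platelet genes were also lower: of 19 tested genes, 11 fell and 2 rose, and 8 fell and 2 rose with the 6 libraries alone. Over all tested genes 13.1% were called lower and 16.9% higher, and 8.86% and 11.0% with the 6 libraries alone. Pf4, the platelet chemokine CXCL4, was at 71.4, 50.6 and 61.9 FPKM in control and 7.45, 10.9 and 14.2 FPKM in TBI+DEIX, with a log2 difference of -2.42 and an adjusted p of 0.00158. Ppbp, the precursor of another platelet chemokine, was at 61.3, 29.8 and 28.9 FPKM in control and 2.63, 6.10 and 4.74 FPKM in TBI+DEIX (adjusted p 0.000637). The groups did not overlap in either gene. The platelet receptor genes Gp9 and Treml1 each fell by 1.30 on the log2 scale (adjusted p 0.000343 and 0.000482), and Tubb1, the platelet tubulin, fell by 1.38 (adjusted p 0.000483). Fli1, a transcription factor of megakaryocytes and other lineages and an abundant member of the list, was not called (adjusted p 0.0711), at 32.8, 31.6 and 33.2 FPKM in control and 37.4, 39.7 and 46.8 FPKM in TBI+DEIX. The median of the list was -0.68 in TBI+DEIX, -0.60 in TBI and -0.23 in DEIX.

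Red cell genes were lower in TBI+DEIX than in control, and the list medians of TBI lay above the controls. Of 20 tested genes for the red cell membrane and skeleton, 9 fell and 1 rose, with a median of -1.13, and with the 6 libraries alone 12 fell and 1 rose. Without TBI+DEIX replicate 1, 4 of these genes fell and 1 rose, beside 15.3% of all tested genes called lower, while the median was -1.14. The list's median in TBI was 0.38, with 0.86, -0.27 and 0.58 in its replicates 1 to 3. Slc4a1, the band 3 anion exchanger, was at 108, 81.2 and 102 FPKM in control and 12.5, 50.5 and 12.8 FPKM in TBI+DEIX (adjusted p 0.0341), and it lost its call in 8 of the 18 alternative fits. Aqp1, the water channel, fell from between 101 and 111 FPKM to between 16.5 and 40.7 FPKM (adjusted p 0.0124). Kel, a blood group endopeptidase, was at 29.4, 28.5 and 38.7 FPKM in control and 6.72, 10.8 and 7.39 FPKM in TBI+DEIX (adjusted p 0.0122, lost with a separate variance for each group). The gene of the list that rose, Slc2a1, codes for the glucose transporter GLUT1, which is not confined to red cells.

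Of 19 tested genes for globins, haem synthesis and iron, 8 fell and 0 rose, beside 13.1% of all tested genes called lower. Without TBI+DEIX replicate 1, 4 fell and 1 rose, beside 15.3% of all tested genes called lower. The globin genes carried the largest falls with the widest spread. Hba-a2, an alpha globin gene, was at 1105, 1081 and 2036 FPKM in control and 24.2, 415 and 104 FPKM in TBI+DEIX (adjusted p 0.0175, lost without control replicate 3). Hbb-bs, a beta globin gene, was at 1481, 1178 and 1728 FPKM in control and 34.2, 579 and 143 FPKM in TBI+DEIX (adjusted p 0.0293, lost in 7 of the 18 alternative fits). Globin genes have near-identical copies, so their estimates may share reads. Uros, an enzyme of haem synthesis, fell from between 21.4 and 24.0 FPKM to 4.32, 13.6 and 6.38 FPKM (adjusted p 0.012). Another list held 13 genes of erythroid transcription factors, the erythropoietin receptor and other differentiation genes. Of these 4 fell and 1 rose, beside 13.1% and 16.9% of all tested genes. With the 6 libraries alone 6 fell and 0 rose, beside 8.86% called lower. Without TBI+DEIX replicate 1, 3 fell and 1 rose, beside 15.3% and 23.2%. Lmo2, a bridging factor of erythroid complexes, fell by 0.65 on the log2 scale (adjusted p 0.00613), and Trim10, a gene of late red cell differentiation, fell by 1.84 (adjusted p 0.0353, lost in 8 of the 18 alternative fits). Summed over 5 erythroid markers, the controls lay between 3138 and 5068 FPKM and TBI+DEIX between 149 and 1466 FPKM.

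The short motif AGATAA, which GATA factors of the red cell lineage bind, was searched on both strands in the 250 bases before the start of each gene. It was found in 7.45% of the 8781 promoters of tested genes with a RefSeq start, in 4 of 13 promoters of the membrane and skeleton list (30.8%) and in 2 of 14 of the haem list (14.3%). It was also found in 5 of 16 promoters of neutrophil secondary and tertiary granule genes (31.2%) and 4 of 20 of maturing neutrophil genes. Among interferon-inducible GTPases 4 of 10 held it (40.0%), and 4 of 29 interferon-stimulated genes (13.8%). It was rarer in B cell precursor genes (1 of 14, 7.14%) and glycolysis genes (1 of 20, 5.0%). None was found in 13 promoters of B cell surface and signalling genes or in 16 of the MHC class I list. The motif was therefore not confined to the red cell lists. No share is given for the list of erythroid transcription factors, which holds Trim10. The promoters of Kel (chr6:41704326-41704575, minus strand) and Trim10 (chr17:36869324-36869573, plus strand), both from RefSeq on GRCm38.p6, are shown because both genes fell and hold the motif. They are written 5′ to 3′ along the gene's strand, with the motif or its reverse complement TTATCT in capitals. A match says only that these letters occur there.

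Kel: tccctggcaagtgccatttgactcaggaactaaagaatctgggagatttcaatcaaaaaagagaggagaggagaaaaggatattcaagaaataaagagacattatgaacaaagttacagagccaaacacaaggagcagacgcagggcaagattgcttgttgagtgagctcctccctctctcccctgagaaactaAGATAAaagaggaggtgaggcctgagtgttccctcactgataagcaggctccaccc

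Trim10: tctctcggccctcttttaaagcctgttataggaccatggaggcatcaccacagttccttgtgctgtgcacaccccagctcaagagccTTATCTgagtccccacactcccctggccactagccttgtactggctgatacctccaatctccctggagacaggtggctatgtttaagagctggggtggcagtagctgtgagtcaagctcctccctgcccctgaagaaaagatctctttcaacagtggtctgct

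Set directly against TBI, 891 of 10994 genes were called in TBI+DEIX (8.1%), and 765 of the 3299 genes called against control were among them, 764 of these in the same direction. The count of 765 changed widely with the fit. With a separate variance for each group 8 of the genes called against control were called against TBI, and on the TPM scale 143. Without TBI+DEIX replicate 3 the number was 49, and without TBI+DEIX replicate 1 it was 2051. In the membrane and skeleton list 11 of 20 genes were lower in TBI+DEIX than in TBI and 1 was higher. Kel was at 60.6, 16.9 and 41.3 FPKM in TBI, a log2 difference of -1.98 for TBI+DEIX (adjusted p 0.0311). Aqp1 was at 149, 63.9 and 140 FPKM in TBI, a log2 difference of -1.87 (adjusted p 0.0349). Both genes were lowest in TBI+DEIX, but their TBI libraries were themselves spread widely, replicate 2 being the lowest. In DEIX, Kel was at 9.62, 31.8 and 12.5 FPKM.

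**Figure D3:**
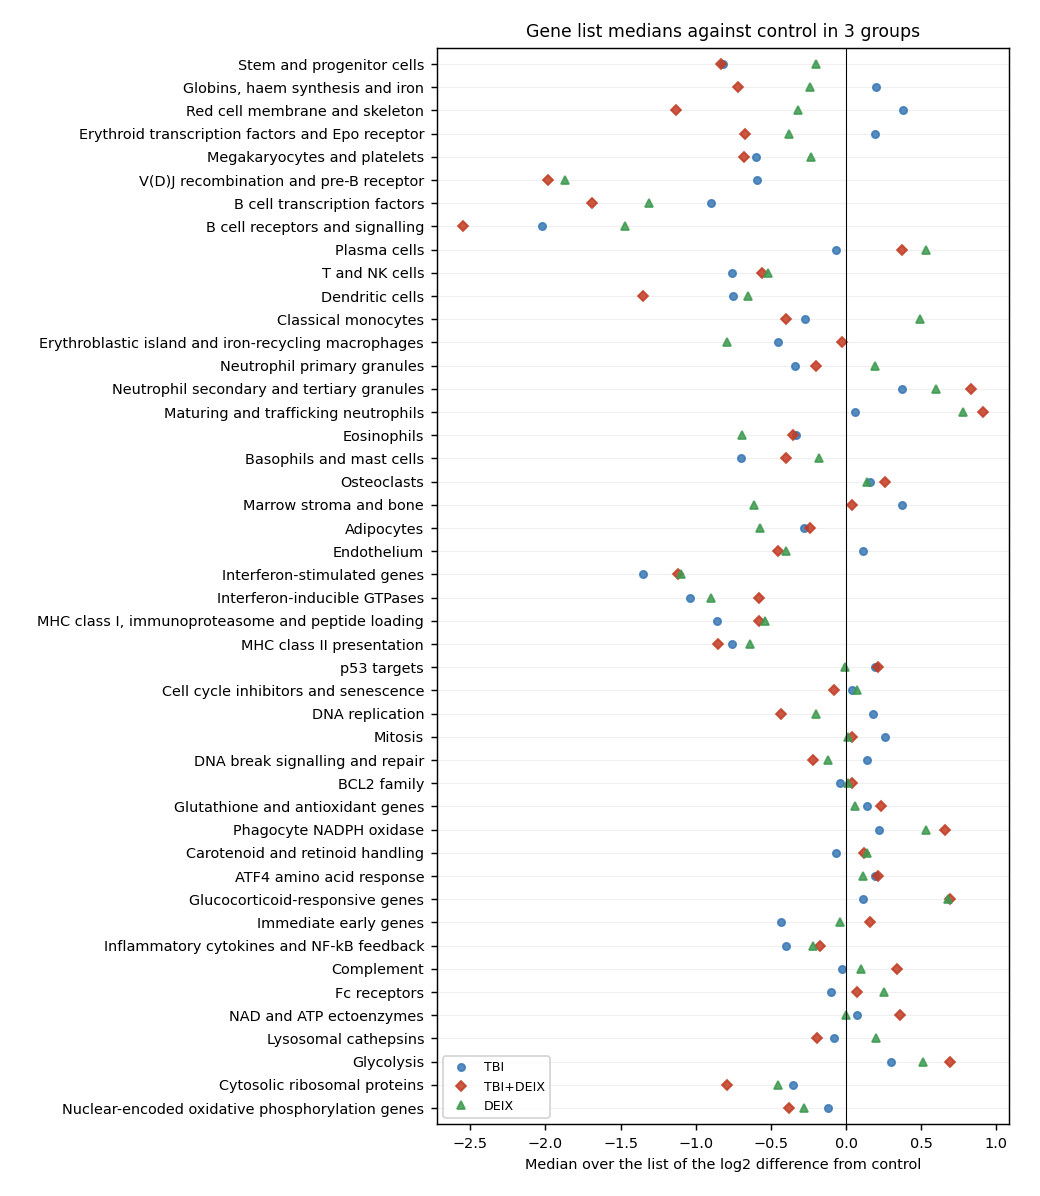
Median over each gene list of the log2 difference from control in TBI (blue circles), TBI+DEIX (red diamonds) and DEIX (green triangles), 3 libraries a group and the same 3 controls for all. The red cell membrane and skeleton list lies at -1.13 in TBI+DEIX and at 0.38 in TBI, while the stem and progenitor list lies at -0.83 and -0.82.

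Many genes of maturing neutrophils were higher, though Camp, Retnlg and Lcn2, among the most abundant ones, were not called. Neutrophil precursors fill granules in waves: primary granules at the promyelocyte stage, then secondary and tertiary granules, then receptors for leaving the marrow and for phagocytosis. Of 20 tested genes of the secondary and tertiary granule stage, 11 rose and 0 fell, and of 24 genes of maturing and trafficking neutrophils, 11 rose and 0 fell. With the 6 libraries alone 9 and 8 rose. Without TBI+DEIX replicate 1, 17 rose in each list, where 23.2% of all tested genes were called higher. Cd177, a surface protein of neutrophils, was at 536, 547 and 630 FPKM in control and 1311, 1354 and 1552 FPKM in TBI+DEIX (adjusted p 0.00142). Itgam, the CD11b integrin chain, was at 249, 240 and 238 FPKM in control and 426, 542 and 564 FPKM in TBI+DEIX (adjusted p 0.00185). Ltb4r1, a leukotriene B4 receptor, had a 2.02-fold higher mean (adjusted p 0.00136). The groups did not overlap in these genes. Mmp25, a membrane-bound protease of neutrophils, was at 57.9, 58.0 and 54.2 FPKM in control and 144, 161 and 158 FPKM in TBI+DEIX, a 2.72-fold higher mean with an adjusted p of 0.000316. Csf2rb, the beta chain shared by the receptors for GM-CSF, interleukin 3 and interleukin 5, was at 70.8, 61.0 and 62.6 FPKM in control and 238, 162 and 188 FPKM in TBI+DEIX (adjusted p 0.000637).

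Leaving aside S100a8, S100a9 and Ngp, which were listed at 0 in some libraries, the most abundant genes of both lists were not called. Camp, the antimicrobial cathelicidin, was at 5422, 6803 and 9090 FPKM in control and 3822, 9259 and 9760 FPKM in TBI+DEIX, a log2 difference of 0.01 (adjusted p 0.984). Retnlg, a resistin-like secreted protein, was at 6604, 7538 and 9446 FPKM in control and 2148, 18070 and 13839 FPKM in TBI+DEIX, a log2 difference of 0.06 (adjusted p 0.955). Lcn2, the iron-sequestering lipocalin of secondary granules, was at 5005, 5524 and 6478 FPKM in control and 8414, 13324 and 14922 FPKM in TBI+DEIX, a log2 difference of 1.07 (adjusted p 0.0571). TBI+DEIX replicate 1 was the lowest of its group for all 3, and below every control for Camp and Retnlg. Without it Retnlg differed by 1.02 (adjusted p 0.0101) and Lcn2 by 1.32 (adjusted p 0.00317).

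Among 11 tested genes of primary granules and the promyelocyte stage, 1 fell and 0 rose. Elane, neutrophil elastase, was the gene that fell, from 838, 1111 and 1259 FPKM to 516, 521 and 612 FPKM (adjusted p 0.0208, lost in 5 of the 18 alternative fits). Mpo, myeloperoxidase and the most abundant of these genes, was not called (adjusted p 0.199), at 1258, 1465 and 1554 FPKM in control and 1547, 651 and 834 FPKM in TBI+DEIX. Of 7 tested genes of the phagocyte NADPH oxidase, which makes superoxide to kill microbes, 5 rose and 0 fell. With the 6 libraries alone 3 rose. Over all tested genes 16.9% were called higher in the fit of 12 libraries and 11.0% in the fit of 6. The medians of the oxidase list were 0.17, 0.82 and 0.98 in TBI+DEIX replicates 1 to 3. Ncf4 rose by 1.00 on the log2 scale (adjusted p 0.00171), Ncf1 by 0.87 (adjusted p 0.00511) and Cybb, the catalytic subunit, by 0.85 (adjusted p 0.00775). The core GAGGAAGT of sites for PU.1, a master factor of myeloid and B cells, was found on either strand in 3.38% of the 8781 promoters, in 2 of 16 of the secondary and tertiary granule list (12.5%), 1 of 20 of the maturing neutrophil list (5.0%), 2 of 13 of the B cell surface and signalling list (15.4%) and 0 of 14 of the B cell precursor list. The median of the maturing neutrophil list was 0.10 in TBI+DEIX replicate 1 and 1.19 and 1.38 in replicates 2 and 3. It was 0.78 in DEIX and 0.06 in TBI, against the same controls.

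Pirb, an inhibitory receptor for MHC class I, was at 70.3, 67.0 and 67.4 FPKM in control and 205, 172 and 208 FPKM in TBI+DEIX (adjusted p 0.000248). Itgb2, the integrin partner of CD11b, rose by 0.94 on the log2 scale (adjusted p 0.000818), and C3, the central complement protein, by 0.87 (adjusted p 0.00908). They stood in a list of 21 tested complement and complement receptor genes of which 7 rose and 2 fell, beside 16.9% and 13.1% of all tested genes, and 4 and 2 with the 6 libraries alone, beside 11.0% and 8.86%. Bst1, an NAD-consuming ectoenzyme of myeloid cells, rose by 1.28 (adjusted p 0.00149), while P2rx7, an ATP-gated channel, fell by 0.67 (adjusted p 0.00387).

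Of 22 tested monocyte genes, 6 rose and 4 fell, beside 16.9% and 13.1% of all tested genes. With the 6 libraries alone 4 rose and 2 fell, beside 11.0% and 8.86%, so the counts were near the background. Cd14, the co-receptor for bacterial lipopolysaccharide, was at 3.67, 3.64 and 4.35 FPKM in control and 24.6, 12.4 and 15.3 FPKM in TBI+DEIX, a 4.51-fold higher mean with an adjusted p of 0.000318. Klf4, a factor of monocyte differentiation, fell from between 19.1 and 21.4 FPKM to 5.35, 9.37 and 11.5 FPKM (adjusted p 0.00456). Lyz2, the abundant lysozyme of myeloid cells, was at 6119, 6197 and 6837 FPKM in control and at 919, 11441 and 11208 FPKM in TBI+DEIX, so replicate 1 lay below all controls and replicates 2 and 3 above them, and the gene was not called (adjusted p 0.747). Of 17 tested genes of erythroblastic island and iron-recycling macrophages, 1 rose and 0 fell.

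Among osteoclast genes 5 of 10 rose and 1 fell, 3 and 1 with the 6 libraries alone, where 16.9% and 13.1% of all tested genes were called in the fit of 12 libraries and 11.0% and 8.86% in the fit of 6. Ctsk, the collagen-degrading cathepsin K, was at 1.18, 0.902 and 1.94 FPKM in control and 4.69, 9.09 and 5.40 FPKM in TBI+DEIX (adjusted p 0.00223). Mmp9, a gelatinase also stored in neutrophil granules, was at 663, 690 and 725 FPKM in control and 1157, 1612 and 1610 FPKM in TBI+DEIX (adjusted p 0.00423). Nfatc1, the master factor of osteoclasts, rose by 0.43 on the log2 scale (adjusted p 0.00462, lost on the TPM scale). Of 10 stroma and bone genes 1 rose and 2 fell, near those shares. Spp1, osteopontin, rose by 1.04 (adjusted p 0.00695, lost on the TPM scale), and Runx2, a factor of the bone-forming lineage also present in plasmacytoid dendritic cells, fell by 0.81 (adjusted p 0.00646). Of 6 tested endothelial genes 3 fell, among them Pecam1 (by 0.91, adjusted p 0.00292), and with the 6 libraries alone 2 fell and 1 rose. The 3 endothelial markers summed to at most 1.58 FPKM in any of the 6 libraries. Scd1, a fatty acid desaturase listed with adipocyte genes, fell from between 11.9 and 14.8 FPKM to between 1.45 and 3.40 FPKM (adjusted p 0.000453). It was the 1 called gene of 7 in that list, and the 2 adipocyte markers summed to at most 1.22 FPKM in any of the 6 libraries.

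Interferon-related lists had medians below the controls, with an uneven pattern over the 3 TBI+DEIX libraries. Type I and type II interferons switch on antiviral genes, large GTPases that attack intracellular microbes, and the machinery that presents peptides on MHC class I. Of 38 tested interferon-stimulated genes 12 fell and 0 rose, of 16 interferon-inducible GTPases 6 fell and 0 rose, and of 19 genes for MHC class I, the immunoproteasome and peptide loading 8 fell and 1 rose. With the 6 libraries alone 3 fell in each list, where 8.86% of all tested genes were called lower, so 3 of 38 interferon-stimulated genes is no more than the share over all genes. The medians of the interferon-stimulated list were -2.46, -0.64 and -0.12 in TBI+DEIX replicates 1 to 3. Without replicate 1 the list's median was -0.32 in place of -1.12, and 12 genes fell and 1 rose. The medians were -1.35 in TBI and -1.10 in DEIX.

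Many of these genes carry an interferon-stimulated response element close to their start. Its core, GAAA, any 2 bases and GAAA again, searched on both strands in the 250 bases before the start, was found in 3.51% of the 8781 promoters, in 14 of 29 promoters of the interferon-stimulated list (48.3%), in 9 of 10 of the GTPase list (90.0%) and in 3 of 16 of the MHC class I list (18.8%). Promoters of 5 members that fell are shown because they hold the element: Bst2 (chr8:71537473-71537722, minus strand), Phf11b (chr14:59341331-59341580, minus strand), Irgm1 (chr11:48871421-48871670, minus strand), Tgtp2 (chr11:49064213-49064462, minus strand) and Gbp3 (chr3:142559794-142560043, plus strand). Holding the element did not go with a call in every member. It was also in Gbp2 (log2 difference -0.01, adjusted p 0.995), Stat2 (-0.3, adjusted p 0.255) and Irgm2 (-0.36, adjusted p 0.515), which were not called. H2-T22 (-0.75, adjusted p 0.0207) was called lower and holds it, but is not shown. The sequences shown are from RefSeq on GRCm38.p6, written 5′ to 3′ along the gene's strand. Capitals mark every base covered by a match, and overlapping matches run together. In Gbp3 the matches are on the opposite strand and read TTTC, any 2 bases, TTTC.

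Bst2: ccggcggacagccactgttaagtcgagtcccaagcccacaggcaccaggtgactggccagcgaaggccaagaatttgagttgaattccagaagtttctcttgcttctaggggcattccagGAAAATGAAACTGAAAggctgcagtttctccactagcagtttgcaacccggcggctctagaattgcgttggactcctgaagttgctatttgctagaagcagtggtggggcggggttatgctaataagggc

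Phf11b: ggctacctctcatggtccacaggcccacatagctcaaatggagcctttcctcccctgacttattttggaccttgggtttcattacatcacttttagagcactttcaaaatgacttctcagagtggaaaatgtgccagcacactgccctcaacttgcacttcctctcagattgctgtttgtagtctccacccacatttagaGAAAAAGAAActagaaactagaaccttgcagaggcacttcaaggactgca

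Irgm1: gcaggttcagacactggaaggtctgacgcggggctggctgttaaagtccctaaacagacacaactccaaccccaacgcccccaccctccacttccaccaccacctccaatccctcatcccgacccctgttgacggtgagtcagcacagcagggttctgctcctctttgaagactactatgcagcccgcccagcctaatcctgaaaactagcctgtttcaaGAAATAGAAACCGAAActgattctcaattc

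Tgtp2: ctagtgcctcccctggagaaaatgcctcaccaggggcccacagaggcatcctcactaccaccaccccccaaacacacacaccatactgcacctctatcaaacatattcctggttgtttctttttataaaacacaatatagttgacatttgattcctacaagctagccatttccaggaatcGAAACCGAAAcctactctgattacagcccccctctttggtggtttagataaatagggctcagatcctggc

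Gbp3: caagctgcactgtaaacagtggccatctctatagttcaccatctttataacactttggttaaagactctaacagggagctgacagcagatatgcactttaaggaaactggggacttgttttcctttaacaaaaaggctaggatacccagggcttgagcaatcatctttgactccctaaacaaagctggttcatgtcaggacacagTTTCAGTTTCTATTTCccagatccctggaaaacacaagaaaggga

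Bst2, the antiviral tether also present on plasmacytoid dendritic cells, was at 72.1, 85.8 and 99.7 FPKM in control and 7.98, 29.0 and 37.2 FPKM in TBI+DEIX (adjusted p 0.00466). Phf11b was at 6.45, 6.71 and 5.95 FPKM in control and 0.355, 2.56 and 2.46 FPKM in TBI+DEIX (adjusted p 0.00418). In both genes replicate 1 was the lowest and the groups did not overlap. Irgm1, an immunity-related GTPase, was at 38.6, 43.5 and 38.5 FPKM in control and 11.2, 23.1 and 31.3 FPKM in TBI+DEIX (adjusted p 0.0212, and 0.0935 with the 6 libraries alone). Tgtp2, another of these GTPases, fell by 1.37 on the log2 scale (adjusted p 0.0023), and Gbp3, a guanylate-binding protein, fell by 0.93 (adjusted p 0.0074). Ifi27l2a, a small interferon-induced protein, was at 626, 766 and 735 FPKM in control and 2.62, 158 and 302 FPKM in TBI+DEIX, with an adjusted p of 0.0431 that became 0.147 with the 6 libraries alone.

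Among MHC class I genes, H2-Q6, a non-classical member, was at 53.7, 75.2 and 54.6 FPKM in control and 9.25, 12.1 and 16.6 FPKM in TBI+DEIX (adjusted p 0.000229), and H2-Q4 fell by 1.09 on the log2 scale (adjusted p 0.00228). These genes are close copies, so reads may have been split among them. The classical gene H2-K1 was at 499, 633 and 613 FPKM in control and 195, 346 and 484 FPKM in TBI+DEIX (adjusted p 0.0302, and 0.126 with the 6 libraries alone). Of 11 tested genes of the MHC class II pathway 4 fell and 0 rose, beside 13.1% of all tested genes called lower. With the 6 libraries alone 3 fell, beside 8.86%. Cd74, the invariant chain of MHC class II, was not called (adjusted p 0.324), at 406, 394 and 475 FPKM in control and 82.7, 410 and 495 FPKM in TBI+DEIX, where replicate 1 alone lay below the controls. H2-Ob, a modulator of peptide loading in B cells, was at 19.8, 15.4 and 20 FPKM in control and 0.683, 3.86 and 1.17 FPKM in TBI+DEIX (adjusted p 0.00106), and H2-Oa, its partner chain, fell by 1.88 (adjusted p 0.000802). Both are expressed with the B lineage, whose 5 markers fell from a sum of between 272 and 348 FPKM to between 4.78 and 79.4 FPKM. The part of that lineage in the class II values was not tested.

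Genes of glycolysis and its transporters were higher across the pathway. Of 21 tested, 15 rose and 0 fell, with a median of 0.69 and medians of 0.58, 0.71 and 0.84 in TBI+DEIX replicates 1 to 3. With the 6 libraries alone 12 rose. Over all tested genes 16.9% were called higher, and 11.0% with the 6 libraries alone. Slc2a1, the glucose transporter GLUT1, was at 7.32, 7.26 and 7.55 FPKM in control and 25.7, 19.4 and 20.1 FPKM in TBI+DEIX, a 2.94-fold higher mean with an adjusted p of 0.000343. Slc2a3, the transporter GLUT3, was at 126, 129 and 131 FPKM in control and 223, 288 and 292 FPKM in TBI+DEIX (adjusted p 0.000795). Further along the pathway, Hk1, hexokinase, rose by 0.66 on the log2 scale (adjusted p 0.00122, lost on the TPM scale), Gpi1, the isomerase, by 1.11 (adjusted p 0.00148) and Pkm, pyruvate kinase, by 0.83 (adjusted p 0.00889). Neutrophils run largely on glycolysis, and the lists of the secondary and tertiary granule stage and of maturing neutrophils had 11 rises each in the same libraries, with 0 in the primary granule list. Their part in the glycolysis values was not tested. The median of the list was 0.30 in TBI and 0.51 in DEIX.

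Many DNA replication genes fell and mitosis genes were not called. Of 24 tested replication genes 10 fell and 0 rose, with a median of -0.43. Without TBI+DEIX replicate 1, 16 fell, where 15.3% of all tested genes were called lower. Pcna, the sliding clamp of DNA polymerase, was at 257, 251 and 250 FPKM in control and 124, 187 and 161 FPKM in TBI+DEIX (adjusted p 0.0112). Tk1, thymidine kinase of S phase, fell by 0.58 on the log2 scale (adjusted p 0.00802), and Gins1, a subunit of the replicative helicase, by 0.73 (adjusted p 0.00426, lost with the length trend taken out). Pcna in TBI was at 251, 242 and 312 FPKM, and TBI+DEIX was lower than TBI by 0.78 (adjusted p 0.0254). Against TBI, 13 of the 24 genes were lower in TBI+DEIX and 0 were higher, beside 8.1% of all tested genes called in either direction. Over the genes called against control, calls against TBI went from 765 to 8 with a separate variance for each group. Of 22 mitosis genes 0 were called with limma at an adjusted p under 0.05, 0 with the 6 libraries alone and 0 without TBI+DEIX replicate 1. The medians of that list were 0.33, -0.08 and -0.16 in TBI+DEIX replicates 1 to 3. Of 22 DNA break signalling and repair genes 5 fell and 0 rose, beside 13.1% of all tested genes called lower. With the 6 libraries alone 3 fell, beside 8.86%. In the fit without TBI+DEIX replicate 1, 11 fell and 1 rose, and 11 fell with the length trend taken out, where 15.3% and 14.3% of all tested genes were called lower. Xrcc6, which codes for Ku70 of end joining, was at 37.9, 35.8 and 41.0 FPKM in control and 16.7, 19.9 and 14.4 FPKM in TBI+DEIX (adjusted p 0.00288).

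The list of p53, the transcription factor that DNA damage activates, and its targets held 6 rises and 2 falls among 21 tested, with a median of 0.21. Over all tested genes 16.9% rose and 13.1% fell, and with the 6 libraries alone, where 11.0% and 8.86% did, 4 of the list rose and 2 fell. With TBI+DEIX replicate 1 left out, 9 rose and 1 fell, beside 23.2% and 15.3% of all tested genes, and with the length trend taken out 8 rose and 2 fell, beside 15.7% and 14.3%. Mdm2, the ligase that restrains p53, was at 28.2, 28.2 and 28.6 FPKM in control and 43.1, 43.7 and 43.8 FPKM in TBI+DEIX, a 1.54-fold higher mean with an adjusted p of 0.000512, lost on the TPM scale. Zmat3 rose from between 0.616 and 0.820 FPKM to between 1.75 and 2.14 FPKM (adjusted p 0.00144), and Ccng1, cyclin G1, rose by 0.56 on the log2 scale (adjusted p 0.00308, lost on the TPM scale). Sesn1, a stress-induced inhibitor of growth signalling, went the other way, from between 14.9 and 16.6 FPKM to between 7.74 and 7.86 FPKM (adjusted p 0.0029). Mdm2 and Sesn1 had tight values in both groups. In TBI, Mdm2 was at 33.5, 30.5 and 33.2 FPKM, and TBI+DEIX was higher than TBI by 0.42 (adjusted p 0.0196). Cdkn1a, the p21 cell cycle inhibitor, rose by 0.51 (adjusted p 0.0211, and 0.0763 with the 6 libraries alone), and Cdkn2d, another such inhibitor, by 0.76 (adjusted p 0.00544). Of 14 BCL2 family genes 3 rose and 2 fell, near the 16.9% and 13.1% of all tested genes. Mcl1, a survival factor of granulocytes, rose by 0.55 (adjusted p 0.00335, lost on the TPM scale), Bak1, a pore former of cell death, rose by 0.58 (adjusted p 0.00783, also lost on the TPM scale), and Bcl2 fell by 0.64 (adjusted p 0.00871).

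Because DEIX is a carotenoid with antioxidant activity in the test tube, genes for oxidant defence and for carotenoid and retinoid handling were listed. Of 26 tested glutathione and antioxidant genes 7 rose and 5 fell, with a median of 0.23, beside 16.9% and 13.1% of all tested genes. When TBI+DEIX replicate 1 was left out, 11 rose and 4 fell with a median of 0.41, beside 23.2% and 15.3% of all tested genes, and with the 6 libraries alone 7 rose and 2 fell. Txnrd1, thioredoxin reductase, was at 29.2, 28.3 and 26.8 FPKM in control and 53.6, 49.5 and 46.8 FPKM in TBI+DEIX (adjusted p 0.000512). Gsr, glutathione reductase, was at 233, 250 and 290 FPKM in control and 406, 425 and 415 FPKM in TBI+DEIX (adjusted p 0.00264), and Prdx6, a peroxiredoxin, rose by 0.52 on the log2 scale (adjusted p 0.00163). Gsr and Prdx6 lost their calls on the TPM scale. Of 11 tested carotenoid and retinoid genes 2 rose and 3 fell, which for the rises is near the 16.9% of all tested genes. Aldh1a1, which makes retinoic acid, fell from between 15.8 and 17.7 FPKM to between 3.67 and 5.36 FPKM (adjusted p 0.00547). In TBI it was at 22.3, 8.06 and 22.4 FPKM and in DEIX at 7.26, 15.8 and 8.68 FPKM, and TBI+DEIX was lower than TBI by 1.59 (adjusted p 0.0256). Rdh12, a retinal reductase, rose by 0.95 (adjusted p 0.00576).

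Single genes of several signalling lists rose. Il1r2, the decoy receptor for interleukin 1, listed with glucocorticoid-responsive genes, was at 33.9, 36.6 and 33.6 FPKM in control and 349, 118 and 118 FPKM in TBI+DEIX, a 5.62-fold higher mean with an adjusted p of 0.00111. Of the 14 genes of that list 4 rose and 0 fell, beside 16.9% and 13.1% of all tested genes, and 2 rose with the 6 libraries alone, beside 11.0%. Fkbp5, a chaperone of the glucocorticoid receptor, was at 20, 21.5 and 20.9 FPKM in control and 96.9, 33.5 and 34.8 FPKM in TBI+DEIX (adjusted p 0.0189, and 0.0813 with the 6 libraries alone). In both genes replicate 1 was the highest. Socs3, the feedback inhibitor of cytokine receptors, was at 4.65, 6.16 and 6.49 FPKM in control and 28.8, 18.1 and 19.8 FPKM in TBI+DEIX, a 3.85-fold higher mean with an adjusted p of 0.00041. In TBI, Socs3 was at 5.67, 4.75 and 4.02 FPKM and in DEIX at 22.3, 14.8 and 12.9 FPKM. TBI+DEIX was higher than TBI by 1.98 (adjusted p 0.00411). Tnf, tumour necrosis factor, was at 8.50, 7.75 and 8.49 FPKM in control and 15.8, 16.0 and 14.7 FPKM in TBI+DEIX (adjusted p 0.00325). Both stood in a list of 13 inflammatory genes of which 3 rose and 1 fell, not far from the shares over all genes. Klf6, an immediate early gene, rose by 0.85 (adjusted p 0.000512), and Ier3 by 0.79 (adjusted p 0.00498). Asns, asparagine synthetase, a target of the amino acid response factor ATF4, was at 30.8, 32.9 and 29.7 FPKM in control and 78, 62.3 and 68.4 FPKM in TBI+DEIX (adjusted p 0.000287). Pck2, a mitochondrial enzyme also listed as an ATF4 target, fell by 0.82 (adjusted p 0.00145). Of the 19 tested genes of that list 3 rose and 1 fell, no more than the 16.9% and 13.1% of all tested genes. With TBI+DEIX replicate 1 left out, 8 rose and 1 fell, beside 23.2% of all tested genes called higher.

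Smaller lists held few calls, and their counts are given beside the 16.9% of all tested genes called higher and 13.1% called lower, with nothing read from them. Of 9 eosinophil genes 2 fell, among them Prg3, an eosinophil granule protein (by 0.74 on the log2 scale, adjusted p 0.00325), and of 10 basophil and mast cell genes 2 fell. Of 9 tested genes in the Fc receptor list, Pirb included, 2 rose and 3 fell, with 4 rises without TBI+DEIX replicate 1. Of 17 lysosomal genes, mostly cathepsins, 3 rose and 2 fell, of 11 genes of NAD and ATP turnover and sensing 4 rose and 2 fell, of 8 tested genes of cell cycle arrest and senescence 2 rose and 1 fell, and of 15 immediate early genes 3 rose and 1 fell. Ctse, the aspartic protease cathepsin E of erythroid precursors, was at 108, 103 and 100 FPKM in control and 20.1, 44.6 and 24.3 FPKM in TBI+DEIX (adjusted p 0.00835).

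Genes for cytosolic ribosomal proteins were lower, and here transcript length moved with the result. All 79 tested had log2 differences under 0, and 44 were called lower, with a median of -0.79 that was -0.49 without TBI+DEIX replicate 1. With the 6 libraries alone 6 were called lower, no more than the 8.86% of all tested genes called lower in that fit. The medians were -1.26, -0.53 and -0.44 in TBI+DEIX replicates 1 to 3, and -0.17, 0.03 and 0.16 in the controls. Rpl12 was at 482, 570 and 571 FPKM in control and 249, 316 and 323 FPKM in TBI+DEIX (adjusted p 0.00396), and Rpl3 fell by 0.66 on the log2 scale (adjusted p 0.00745). Ribosomal genes have many processed copies in the genome that may take reads. Their transcripts are short: 46 of the 79 have a longest protein-coding transcript under 1000 bases, where the median over all tested genes was 3034 bases. The 659 tested genes under 1000 bases had medians of -0.92, -0.19 and -0.15 in TBI+DEIX replicates 1 to 3, and 24.3% of them were called lower. Among the 613 of them outside the ribosomal list 21.7% were called lower. Genes of 8000 bases or more had medians of 0.31, 0.07 and 0.02. With the trend on length taken out of each library, a step chosen after seeing the data, the ribosomal median went from -0.79 to -0.44 with 39 genes called lower, and that of the 81 nuclear-encoded oxidative phosphorylation genes from -0.38 to -0.05. The part of length in these values beyond that was not tested.

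**Figure D4:**
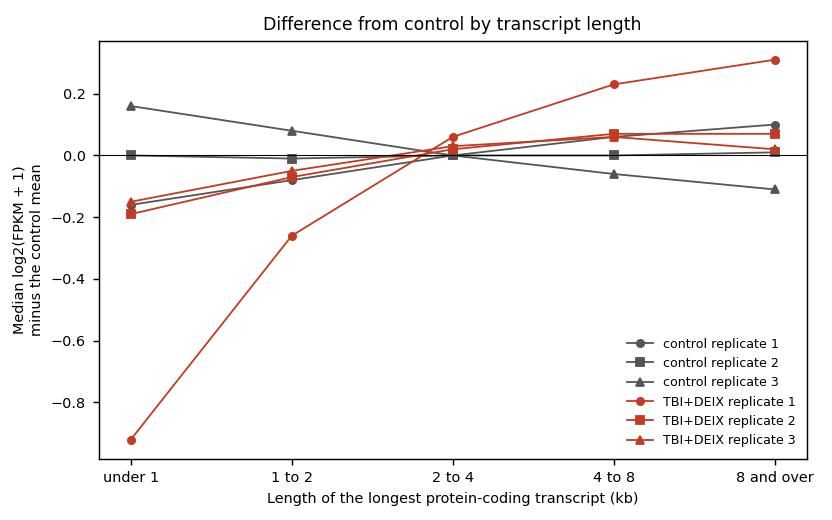
Median log2(FPKM + 1) minus the control mean for genes grouped by the length of their longest protein-coding transcript, a line for each of the 3 control (grey) and 3 TBI+DEIX (red) libraries. TBI+DEIX replicate 1 runs from -0.92 for genes under 1000 bases to 0.31 for those of 8000 bases or more, while replicates 2 and 3 stay within the range of the controls or close to it.

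**Figure D5:**
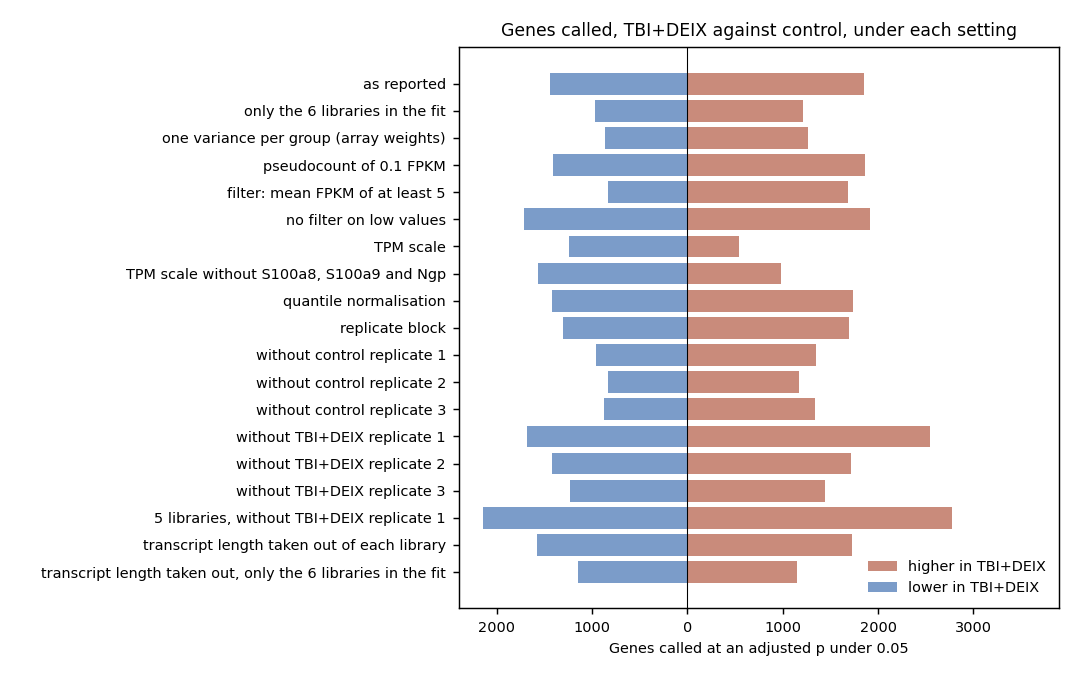
Number of genes called higher (right) and lower (left) in TBI+DEIX against control in the fit reported and in each alternative. The fit reported has 1855 and 1444, the TPM scale 546 and 1239, and the 6 libraries alone 1207 and 974.

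Genes called in the same direction in all 19 fits, the reported fit and 18 alternatives, numbered 388 higher and 285 lower. Among the 12 largest rises 10 were called in every fit, and among the 12 largest falls 7. Against TBI, 5 of the 12 largest rises and 0 of the 12 largest falls were called at an adjusted p under 0.05 with limma. The rises that also differed from TBI were Asprv1 (by 2.01 on the log2 scale, adjusted p 0.0102), Stfa2 (by 3.05, adjusted p 0.0203), Ggt1 (by 2.30, adjusted p 0.0205), Stfa3 (by 2.80, adjusted p 0.0251) and Entpd3 (by 2.6, adjusted p 0.0251). For Spib the difference from TBI was -1.57 (adjusted p 0.103), and for Fcmr, between 0.315 and 0.592 FPKM in TBI, it was -0.19 (adjusted p 0.638).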

How the data were processed

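Whole marrow RNA was sequenced from directional MGI messenger RNA libraries, per the labels' protocols. The authors deposited FPKM values per gene; the submitters' processing notes name STAR 2.6, Cufflinks 2.2.1 and the mm10 build (GRCm38) without saying how each was used, and the annotation is not given in the sources used here. All 21853 identifiers matched protein-coding genes of GENCODE vM21. Values were tested as log2(FPKM + 1) with limma 3.58.1 in R 4.3.3 (trend, 4 group means over all 12 libraries, Benjamini-Hochberg over 10994 genes with FPKM of at least 1 in at least 3 libraries). This scale understates the change of low genes, and fold values are ratios of mean FPKM. Read totals are unknown. A fit on the 6 libraries is given beside main counts because the TBI+DEIX spread was larger. The 46 lists and the genes were chosen with earlier results of these data known. Genes named were the 12 largest non-overlapping called rises and falls with a mean of at least 5 FPKM in the higher group, and per list the 3 with the highest mean and the 3 with the smallest p. Of 266 tested genes that met this rule 168 were called; the text gives values for 131, mostly called ones, chosen with their values seen, so genes that were not called are under-represented in it. Scripts were tested on simulated data. Alternatives changed the spread model, pseudocount, filter, scaling, block and libraries. Results for a few genes are not reported here.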

Additional observations from a re-analysis of the deposited data

How the results depend on the processing

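Of the 131 named genes followed through 18 alternative fits, the number that lost a call ran from 0 (pseudocount of 0.1 FPKM, and a mean of at least 5 FPKM, where only 116 were tested) to 12 (without control replicate 3, and on the TPM scale). Among them Vpreb3, Hbb-bs, Slc4a1 and Trim10 were lost without any 1 control library and without TBI+DEIX replicate 1 or 3, and Elane, Marco, H2-K1, Ikzf1, Irgm1, Ifi27l2a, Fkbp5 and Cdkn1a without 1 or more single libraries. Of the 131, 6 changed direction, all not called as reported. When each library was left out, the log2 difference of Lyz2 ran from -0.99 (without TBI+DEIX replicate 2) to 0.83 (without TBI+DEIX replicate 1), of Jchain from -0.12 (without TBI+DEIX replicate 3) to 1.45 (without TBI+DEIX replicate 1), of Camp from -0.22 to 0.45, of Retnlg from -0.51 to 1.02, of Ly6a from -1.24 (without TBI+DEIX replicate 3) to 1.08 (without TBI+DEIX replicate 1) and of Cd74 from -1.20 to 0.09 (without TBI+DEIX replicate 1). Camp was at -0.11 on the TPM scale, -0.07 in TPM without S100a8, S100a9 and Ngp and -0.88 after quantile normalisation, Retnlg at -0.06, -0.02 and -0.56, and Ly6a at -0.12, -0.08 and -0.15. Ly6a was at -0.00 with a pseudocount of 0.1 FPKM. Without TBI+DEIX replicate 1 Lyz2, Lcn2, Retnlg and Fli1 were called higher and Mpo lower. The count of genes called in TBI+DEIX against control, 3299, was 2181 with the 6 libraries alone, 2130 with a separate variance for each group and 1785 on the TPM scale, and it ran from 2004 (without control replicate 2) to 4232 (without TBI+DEIX replicate 1) when each library was left out. The count of those genes called against TBI, 765, was 8 with a separate variance for each group, 143 on the TPM scale and 441 in TPM without S100a8, S100a9 and Ngp, and it ran from 49 (without TBI+DEIX replicate 3) to 2051 (without TBI+DEIX replicate 1). It was 378, 301 and 460 without control replicates 1, 2 and 3, where fewer genes were called against control. The fit of 6 libraries gives it no value. Other causes were not tested. The fits without TBI+DEIX replicate 1 on 5 libraries (4926 called, Jchain among them) and with the length trend taken out (3295, or 2302 with the 6 libraries alone) were chosen after seeing the data.

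Replicate numbers are shared by the groups. Deviations of same-numbered TBI+DEIX and control libraries correlated at 0.188, -0.102 and 0.258 for numbers 1 to 3, so the numbers were not taken to pair the libraries. With the replicate number as a block 3000 genes were called against control (1693 higher, 1307 lower), and 428 of the genes called against control were also called against TBI. TBI+DEIX replicates 1 and 3 correlated best with the control of their own number and replicate 2 did not.

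Median values near 0 changed sign for 12 of the 46 lists in some alternative, among them mitosis, the BCL2 family, Fc receptors, carotenoid and retinoid handling, and inflammatory genes, so no direction is given for those lists as a whole. Depth is unknown in fragments.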
